A study of Homo sapiens with 2 samples.

Results

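The genes that restrain cyclin-dependent kinases (CDKs), together with the 3 GADD45 genes, were examined in H2228 cells with and without interleukin 4 (IL4). The set was defined by name as 10 genes, which are CDKN1A, CDKN1B and CDKN1C of the CIP/KIP family, CDKN2A, CDKN2B, CDKN2C and CDKN2D of the INK4 family, and GADD45A, GADD45B and GADD45G. All probe sets that the array annotation gives to only 1 of these genes were taken. They came to 20 of 54675 probe sets and covered 9 of the 10 genes, out of 19775 genes named on the array. No values of CDKN2C were analysed here.

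The cells were H2228, an established line from a human lung adenocarcinoma with the variant 3 fusion EML4-ALK, in which the kinase domain of ALK is joined to EML4. One group was H2228 cells given IL4, which the series description puts at 100 ng/mL for 30 min, and the other was H2228 cells with no treatment. RNA of each was hybridized to 1 Affymetrix U133 Plus 2.0 array. The labels of both samples also speak of transfection with EML4-ALK plasmids, siRNAs or negative controls for 48 h, so whether these cells had been transfected could not be settled. With 1 array per condition there were no replicates and no test, and a difference between the cultures cannot be told apart from an effect of IL4. The values are log2 expression values, and every difference below was taken as IL4 minus untreated.

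CDK inhibitors hold back the kinases that drive a cell through its division cycle. The CIP/KIP proteins p21 (CDKN1A), p27 (CDKN1B) and p57 (CDKN1C) bind cyclin-CDK complexes broadly, and act mainly on CDK2 complexes, whereas the INK4 proteins bind CDK4 and CDK6 alone and keep the D-type cyclins from activating them. p21 can be induced by many signals within hours, while p27 is controlled both by transcription, in which FOXO factors take part, and by destruction through the SKP2 ubiquitin ligase. The GADD45 proteins are small stress-induced proteins that carry no enzyme activity of their own; they bind PCNA, p21 and the CDK1-cyclin B complex, and they activate the kinase MAP3K4 upstream of p38 and JNK. In microarray data these genes are read as mRNA, which does not show the level or the activity of the proteins.

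Of the 9 measured genes, 3 reached 1.5-fold or more above untreated cells with IL4, namely CDKN1A, GADD45A and GADD45B, and 2 reached 1.5-fold or more below them, namely CDKN1B and CDKN2D. Over all 19775 genes, 3.21% were higher and 4.39% were lower at that level. CDKN1C, CDKN2A, CDKN2B and GADD45G differed by less than 1.5-fold, with log2 differences between 0.086 and 0.18. The median log2 difference was 0.15 over the 9 genes and 0 over all genes. At 2-fold, 2 of the 9 genes were higher (CDKN1A and GADD45A) and 1 was lower (CDKN1B), against 1.11% and 0.89% of all genes. CDKN2B is the 1 measured gene of the set with a mean below the median of all probe sets. Among the 12949 genes with a mean at or above it, 4.34% were higher and 5.88% lower at 1.5-fold, beside 3 and 2 of the 8 genes of the set at that level. By family, 1 of 3 CIP/KIP genes was higher and 1 lower, 0 of 3 measured INK4 genes were higher and 1 lower, and 2 of 3 GADD45 genes were higher and 0 lower. Among the 20 probe sets, 6 were at least 1.5-fold higher, 2 were lower and 12 were neither. Of the 6, 4 belonged to GADD45B and are repeat readings of 1 gene on the same arrays. Over all probe sets with 1 gene, 3.20% were higher and 3.83% lower.

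**Figure D1:**
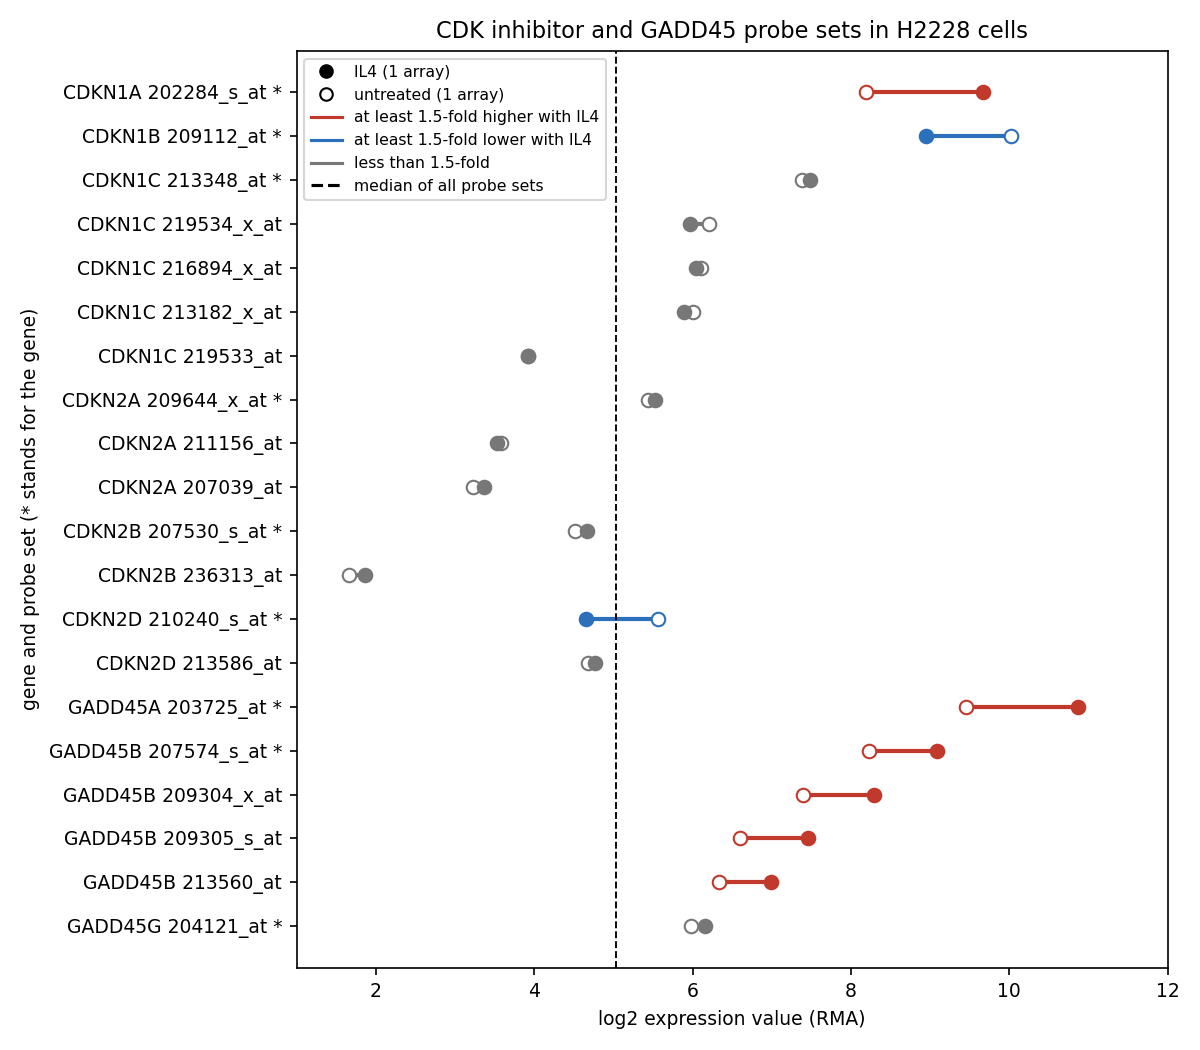
Log2 expression values (x axis) of the 20 probe sets of the CDK inhibitor and GADD45 genes (rows) with IL4 (filled circles) and in untreated cells (open circles), 1 array for each condition, and only circles of the same row can be compared. The probe set with the highest mean, marked by a star, stands for the gene; CDKN1A lies at 9.67 with IL4 and 8.20 in untreated cells, CDKN1B at 8.95 with IL4 and 10.02 in untreated cells, and the dashed line is the median of all probe sets, 5.03.

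CDKN1A and CDKN1B, which encode the closely related inhibitors p21 and p27, moved in opposite directions. CDKN1A, measured by its only probe set, 202284_s_at, had log2 values of 9.67 on the IL4 array and 8.20 on the untreated array. This is a log2 difference of 1.47, or 2.78-fold higher with IL4. CDKN1B, also measured by a single probe set, 209112_at, had log2 values of 8.95 on the IL4 array and 10.02 on the untreated array. Its log2 difference was -1.07, which is 2.09-fold lower with IL4. Both genes lay well above the median of all probe sets on both arrays, by 4.64 with IL4 and 3.17 without it for CDKN1A, and by 3.92 with IL4 and 4.99 without it for CDKN1B.

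The difference of CDKN1A minus that of CDKN1B was 2.54 on the log2 scale. The fold change of CDKN1A was thus 5.81 times that of CDKN1B. CDKN1A stood at rank 86 of the 19775 genes counted from the largest increase, and CDKN1B at rank 138 counted from the largest decrease. A difference at least as large, in either direction, was found in 0.582% of all genes for CDKN1A and in 1.69% for CDKN1B. As a yardstick from within the 2 arrays, the log2 differences of the 2 brightest probe sets of a gene differed from each other with a standard deviation of 0.25 over 6056 genes that had both above the median. That figure holds disagreement between probe sets on the same arrays and no variation between cultures. Neither CDKN1A nor CDKN1B had a second probe set to compare, and the suffix of the CDKN1A probe set (_s_at) marks a design that can bind several transcripts.

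The sequences before the start sites of this pair are shown because the genes moved in opposite directions. They are the 250 bases upstream of the annotated start from RefSeq (GRCh38.p14), for CDKN1A chr6:36678464-36678713 and for CDKN1B chr12:12717118-12717367, both on the plus strand. Capitals mark matches to the GC box GGGCGG and the CCAAT box on either strand.
CDKN1A: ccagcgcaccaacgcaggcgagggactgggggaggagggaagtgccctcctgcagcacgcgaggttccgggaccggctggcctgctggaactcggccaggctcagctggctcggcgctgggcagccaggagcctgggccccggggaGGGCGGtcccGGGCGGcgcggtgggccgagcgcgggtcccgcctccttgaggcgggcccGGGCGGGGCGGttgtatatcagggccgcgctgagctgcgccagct
CDKN1B: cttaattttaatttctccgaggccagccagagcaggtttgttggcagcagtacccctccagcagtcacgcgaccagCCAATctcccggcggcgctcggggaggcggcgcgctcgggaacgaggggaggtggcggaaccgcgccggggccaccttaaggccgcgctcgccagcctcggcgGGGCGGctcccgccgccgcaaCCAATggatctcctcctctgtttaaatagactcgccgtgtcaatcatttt
The CDKN1A window held 4 GC boxes, the last 2 of which share 1 base, and no CCAAT box. The CDKN1B window held 1 GC box and 2 CCAAT boxes. GC boxes occurred in 42.6% and CCAAT boxes in 32.0% of 35116 windows of the same length in the table. The C+G content was 76.4% for CDKN1A and 64.4% for CDKN1B, beside a median of 58.0% over all windows. Neither window matched the TATA box TATAA, the E-box CACGTG, the AP-1 site TGANTCA, the STAT elements, in which TTC and GAA stand 3 or 4 bases apart, the FOXO site GTAAACA or the NF-kB site, of which the shares over all windows were 18.9%, 6.34%, 6.57%, 6.57%, 5.38%, 2.98% and 5.21%. These letters say nothing about sites outside the windows.

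CDKN1C, which encodes p57, an imprinted gene with roles in development, differed little between the arrays. It had 5 probe sets. The brightest, 213348_at, had log2 values of 7.48 on the IL4 array and 7.38 on the untreated array, a log2 difference of 0.10. Probe sets 219534_x_at, 216894_x_at and 213182_x_at had log2 differences of -0.24, -0.068 and -0.12, and their suffix also marks a design that can bind several transcripts. The fifth, 219533_at, had exactly the same log2 value, 3.92, on both arrays. The sign of CDKN1C therefore depended on the probe set, and the mean over the 5 probe sets was -0.066 ± 0.13 (SD over probe sets, not over cultures). All 5 lay within 1.5-fold, so that the third CIP/KIP gene sat between CDKN1A and CDKN1B.

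**Figure D2:**
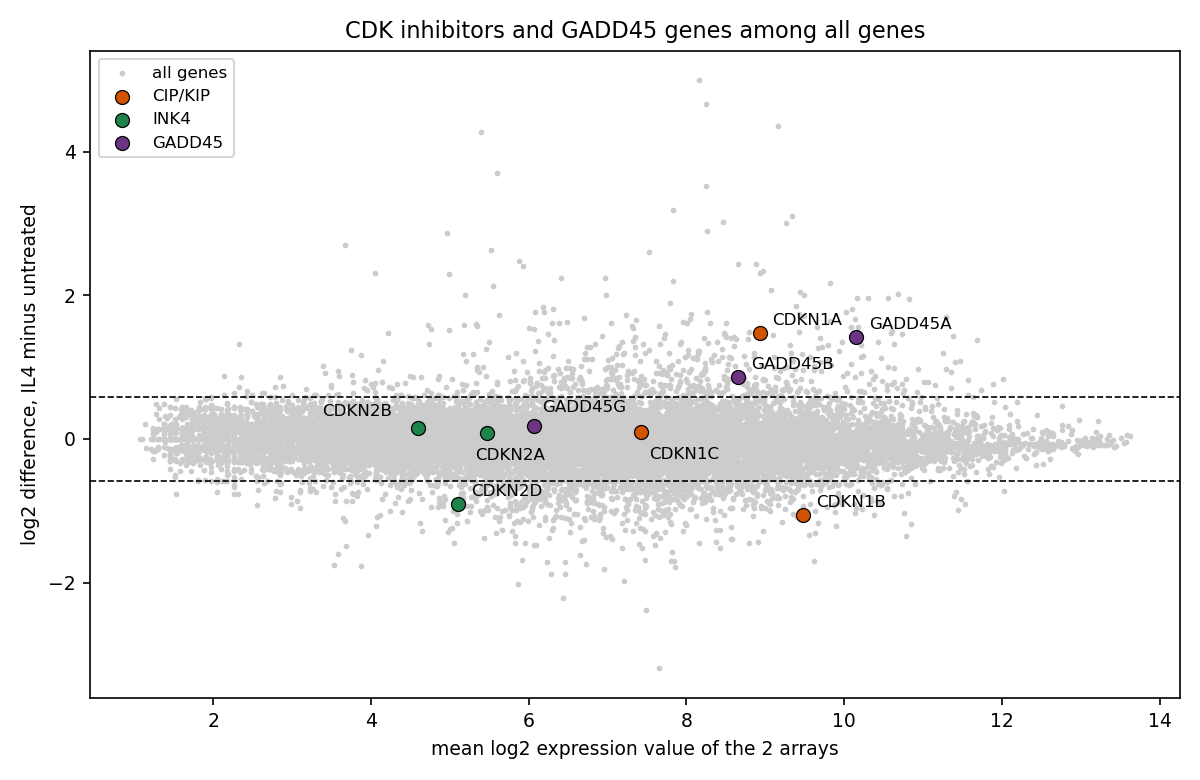
Log2 difference between IL4-treated and untreated cells (y axis) against the mean log2 expression value of the 2 arrays (x axis), 1 grey point per gene, with the 9 measured CDK inhibitor and GADD45 genes in colour by family and dashed lines at 1.5-fold. CDKN1A (1.47) and GADD45A (1.41) lie close to each other in height, GADD45B lies at 0.86, CDKN1B at -1.07 and CDKN2D at -0.91, and the other 4 lie between 0.086 and 0.18.

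All 6 probe sets of the GADD45 genes had higher values with IL4, whereas the CIP/KIP and INK4 families had probe sets on either side of 0. GADD45A, which is induced by DNA damage and other stresses, had log2 values of 10.86 on the IL4 array and 9.45 on the untreated array on its only probe set, 203725_at. It was 2.67-fold higher with IL4 (log2 difference 1.41) and stood at rank 98 of the 19775 genes. The difference of GADD45A minus that of CDKN1A was -0.060 on the log2 scale. This is smaller in size than the yardstick of 0.25 given above for the 2 brightest probe sets of a gene. That yardstick holds no variation between cultures, so it does not show that the 2 genes changed alike.
GADD45B, known as an early response gene of TGF-beta and NF-kB signalling, was measured by 4 probe sets. The brightest, 207574_s_at, had log2 values of 9.09 on the IL4 array and 8.23 on the untreated array, which is 1.82-fold higher with IL4 (log2 difference 0.86). Probe set 209304_x_at had 8.29 with IL4 and 7.39 in untreated cells, 209305_s_at had 7.46 with IL4 and 6.60 in untreated cells, and 213560_at had 6.99 with IL4 and 6.33 in untreated cells. All 4 were past 1.5-fold, between 1.59-fold and 1.86-fold, with a mean log2 difference of 0.82 ± 0.10 (SD over 4 probe sets of the same arrays). The suffix-free probe set 213560_at, which is designed for a single transcript, had the smallest of the 4 differences, 0.67.
GADD45G, the third member, which is best known from differentiation and from its silencing in tumours, had log2 values of 6.15 on the IL4 array and 5.98 on the untreated array. Its log2 difference of 0.18 was less than 1.5-fold, and 47.1% of all genes had a difference of at least that size.

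The GADD45B window is shown because all 4 probe sets of GADD45B passed 1.5-fold in the same direction. It covers chr19:2475877-2476126 on the plus strand (GRCh38.p14), and capitals mark the CCAAT box, the TATA box TATAA and the E-box CACGTG.
GADD45B: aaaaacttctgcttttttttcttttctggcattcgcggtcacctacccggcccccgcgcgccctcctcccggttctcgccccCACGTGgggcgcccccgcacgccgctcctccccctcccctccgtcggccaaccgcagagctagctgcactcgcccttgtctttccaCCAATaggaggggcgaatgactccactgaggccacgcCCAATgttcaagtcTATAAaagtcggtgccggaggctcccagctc
It held 2 CCAAT boxes, 1 TATA box and 1 E-box, and no GC box. Its C+G content was 63.2%. Upstream windows were in the table for 8 of the 10 genes, and CDKN1C and GADD45A had none. Of the motifs searched, the AP-1, STAT, FOXO and NF-kB motifs were found in none of the 11 windows of these 8 genes, some of which have several annotated starts.

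Most INK4 probe sets were dim, with a mean below the median of all probe sets. INK4 proteins block CDK4 and CDK6, and CDKN2A and CDKN2B lie side by side on chromosome 9. This held for 5 of 7 probe sets, although those that stand for CDKN2A and CDKN2D had means above it, at 5.48 and 5.11. CDKN2A, which encodes p16INK4a and, in another reading frame, p14ARF, had log2 values of 5.52 on the IL4 array and 5.43 on the untreated array on its brightest probe set, 209644_x_at (log2 difference 0.086). Its other probe sets, 211156_at and 207039_at, had means of 3.56 and 3.29 and log2 differences of -0.058 and 0.13. CDKN2B, which encodes p15 and is a known target of TGF-beta, had log2 values of 4.67 on the IL4 array and 4.52 on the untreated array on 207530_s_at, below the median on both arrays, and 1.86 with IL4 and 1.66 in untreated cells on 236313_at. No difference in CDKN2A or CDKN2B was detectable at these signal levels, which does not show that they were the same in both cultures.
CDKN2D, which encodes p19INK4d, had probe sets that disagreed. On 210240_s_at, which stands for the gene, the log2 value was 4.66 with IL4 and 5.57 in untreated cells, a log2 difference of -0.91. The IL4 value was under the median level, for which reason a fold is left out. On 213586_at it was 4.77 with IL4 and 4.68 in untreated cells, a log2 difference of 0.086, and both values lay below the median. The mean over both was -0.41, less than 1.5-fold. The count of CDKN2D among the lower genes therefore rested on 1 probe set.

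Among dim probe sets the differences were not spread continuously. Compared to 6 decimals, 4528 of 54675 probe sets (8.28%) had a difference of exactly 0, and 43.8% had a log2 difference that was found in 9 or more other probe sets. This share was 82.3% for probe sets with a mean log2 value below 3 and 59.8% between 4 and 5, but 1.73% between 8 and 10 and 0.673% from 10 upward. None of the 8 CDK inhibitor and GADD45 probe sets past 1.5-fold had such a recurring difference, and 1 of them shared its difference with 1 other probe set. Of the other 12 probe sets, 6 had one. The same share over all probe sets past 1.5-fold was not computed. These counts are therefore no measure of how firm the differences past 1.5-fold are. The difference of 0.086 on 209644_x_at of CDKN2A was found on 49 others, 213586_at of CDKN2D among them. That of 236313_at of CDKN2B was found on 186 others, and that of 207039_at of CDKN2A on 71 others. Apart from 211156_at of CDKN2A, whose difference was found on 4 others, each INK4 difference under 1.5-fold was one that at least 21 other probe sets had as well.

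**Figure D3:**
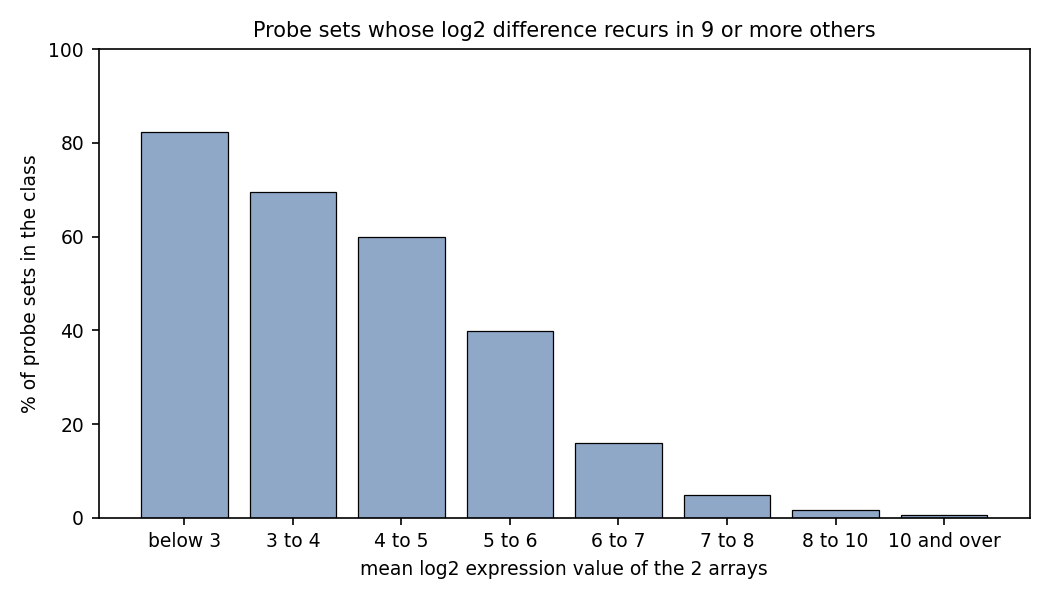
Share of probe sets (y axis, in percent of the class) whose log2 difference between IL4-treated and untreated cells, compared to 6 decimals, occurs in 9 or more other probe sets, by class of the mean log2 expression value of the 2 arrays (x axis). The share is 82.3% below 3 and 0.673% from 10 upward; CDKN1A, CDKN1B, GADD45A and GADD45B lie in the classes from 6 upward, and most INK4 probe sets in the classes below 5.

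Around the inhibitors, the cyclins and CDKs that they bind went both ways. Of 13 such genes, 2 passed 1.5-fold upward with IL4 and 4 downward, with a median log2 difference of -0.11. Over all genes, 3.21% were higher and 4.39% lower at that level, the shares to read beside the counts of this and the following lists. These lists were chosen with earlier results of these data known. CDK6, a target of the INK4 proteins, had log2 values of 7.62 on the IL4 array and 6.50 on the untreated array, which is 2.19-fold higher, with log2 differences from 0.25 to 1.13 over its 7 probe sets. CCNE1, which encodes the CDK2 partner cyclin E1, was 1.67-fold higher, but its other probe set had a log2 difference of -0.040. The 4 lower genes were those of the S phase and mitotic cyclins and of CDK1. CCNA2 was 2.04-fold lower, CCNB2 1.87-fold, CDK1 1.69-fold and CCNB1 1.67-fold, but the 3 probe sets of CCNB2 ran from -0.91 to 0.42. The log2 differences of CDK2, CDK4, CCND1 and CCNE2 were 0.022, -0.16, 0.43 and -0.11, all less than 1.5-fold, and the other probe set of CCNE2 had 0.028.
Of 13 genes of RB proteins and E2F and DP factors, which lie downstream of the CDKs, 1 was higher and 3 were lower. E2F7 was 2.47-fold higher, but its other probe set had a log2 difference of 0.44, less than 1.5-fold. E2F8, with 1 probe set, was 2.86-fold lower. Both are repressor members of the family. RBL1, which encodes the pocket protein p107, was 1.89-fold lower, with a range from -0.92 to -0.13 over its 4 probe sets. The third, RB1, the retinoblastoma gene, had a mean log2 value of 4.31, under the median level, and a log2 difference of -0.89. Of 31 genes of S phase and mitosis, none was higher (0) and 20 were lower. Their median log2 difference was -0.66, the lowest of the 9 related lists. The largest decreases were in KIF11 (2.69-fold), a spindle motor, TTK (2.63-fold), a kinase of the spindle checkpoint, CDC25C (2.49-fold), a phosphatase that activates CDK1, ORC1 (2.23-fold) and AURKA (2.04-fold). A probe set of CDC25C had a log2 difference of -0.11. Lower mRNA of these genes stood beside lower CDKN1B and higher CDKN1A in the same arrays, and the part of either in the other was not tested.

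Genes that control p27 were mostly close to 0. Of 13 measured, 1 was higher and 1 was lower. SKP2, which encodes the ubiquitin ligase subunit that marks p27 for destruction, had log2 values of 9.11 on the IL4 array and 10.01 on the untreated array and was 1.87-fold lower, with log2 differences from -1.0 to -0.45 over 3 probe sets. CKS1B, the cofactor of SKP2, named after its value was seen, had a log2 difference of -0.47. FOXO3, a transcription factor that activates CDKN1B, was 1.57-fold higher, with log2 differences from 0.25 to 0.75 over 4 probe sets. With the mean over probe sets, 0 of the 13 genes were higher. FOXO1 had a log2 difference of -0.13, with up to 0.15 on its other probe sets. Of 16 genes known as FOXO targets, 5 were higher and 3 were lower. CITED2 (2.37-fold), SOD2 (2.11-fold), KLF6 (2.06-fold), IRS2 (1.83-fold) and FBXO32 (1.52-fold) were higher, whereas SESN3 (3.35-fold), CCNG2 (1.97-fold) and BCL6 (1.89-fold) were lower. The list left out the CDK inhibitor and GADD45 genes themselves, of which 3 were higher and 2, CDKN1B among them, were lower. The probe sets of CITED2 (from -0.015 to 1.35) and of CCNG2 (from -1.01 to 0.24) lay on either side of 0. Those of SESN3 (from -1.74 to -0.28) and of BCL6 (from -0.92 to -0.040) were all lower, but some by less than 1.5-fold. Those of KLF6 (from 0.28 to 1.07) and of FBXO32 (from 0.46 to 1.05) were all higher, but some by less than 1.5-fold. Some of these genes answer to many other signals, SOD2 and KLF6 among them.

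Of 20 transcription regulators of CDKN1A and kinases upstream of it, 3 were higher and 4 were lower, beside 3.21% and 4.39% of all genes. KLF6, which can activate CDKN1A, and SMAD3 (1.53-fold), a mediator of TGF-beta, were higher. MYC, a repressor of CDKN1A, was also higher, at 1.92-fold. The checkpoint kinase genes CHEK1 (1.81-fold), ATM (1.60-fold) and CHEK2 (1.54-fold) and the SP1 relative SP3 (1.53-fold) were lower. However, ATM and SP3 had probe sets on either side of 0. The probe sets of CHEK1 (from -0.85 to -0.40) were all lower, but some by less than 1.5-fold. Those of SMAD3 (from 0.41 to 0.87) were all higher, but some by less than 1.5-fold. MDM2, which encodes a ubiquitin ligase, had log2 values of 7.87 on the IL4 array and 8.33 on the untreated array, and the log2 differences of its 10 probe sets ran from -0.45 to 0.20. The log2 difference of STAT6, the factor through which IL4 signals, was 0.22.

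Of the partners of the GADD45 proteins, p21 (CDKN1A) is described above. Among 16 other genes of GADD45 partners and the stress MAP kinase cascade 13 were measured, of which 0 were higher and 3 were lower. These were CDK1, CCNB1 and MAP2K6 (1.70-fold), an activator of p38, for which a second probe set had a log2 difference of 0.023. MAP3K4, the kinase that GADD45 proteins activate, had log2 values of 7.73 on the IL4 array and 7.64 on the untreated array (log2 difference 0.084). Of 18 other growth arrest and stress genes, 3 were higher and 3 were lower. ATF3 (3.41-fold), a stress-induced transcription factor, PPP1R15A (2.04-fold), which encodes GADD34, a protein named like the GADD45 proteins but unrelated in sequence, and BTG3 (1.58-fold) were higher. DDIT4 (2.50-fold), an inhibitor of mTOR signalling, and SESN3 were lower, as was RGCC, whose mean log2 value of 4.17 was under the median level (log2 difference -0.76). ATF3, BTG3 and RGCC had probe sets on either side of 0.
Of 17 measured regulators and neighbours of the CDKN2A and CDKN2B locus, 1 was higher and 3 were lower. ETS1, which activates CDKN2A, was 3.88-fold higher, with log2 differences from 1.54 to 2.30 over 3 probe sets. ID4 (2.42-fold), ID2 (2.16-fold) and ID1 (1.99-fold), members of a family of which ID1 opposes ETS proteins at CDKN2A, were lower. The log2 differences of the 5 probe sets of ID4 ran from -1.28 to -0.37, so some were less than 1.5-fold. CDKN2A itself had a log2 difference of 0.086.

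**Figure D4:**
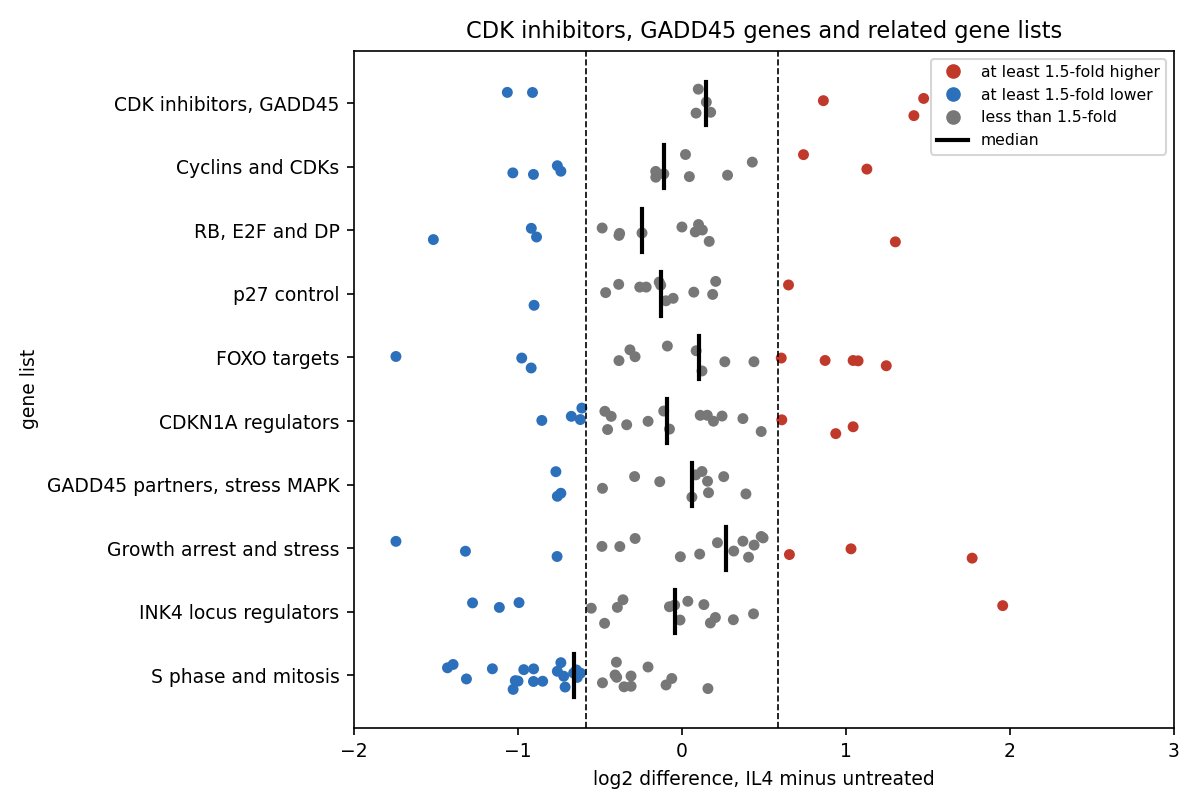
Log2 difference between IL4-treated and untreated cells (x axis) for the 9 measured CDK inhibitor and GADD45 genes (top row) and for 9 related gene lists (rows), each gene as a point with random vertical scatter, with black bars at the medians and dashed lines at 1.5-fold. The genes of S phase and mitosis have 20 blue points, 0 red points and a median of -0.66, whereas the CDK inhibitors and GADD45 genes have 3 red and 2 blue points; some genes stand in several lists.

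Epithelial identity was checked with markers. All 11 measured markers of lung epithelium and adenocarcinoma lay at or above the median level. CDH1 was 1.68-fold higher with IL4, NKX2-1 was 1.96-fold lower, and the sum of the 11 linear values was 21049 with IL4 and 18140 in untreated cells. Of 8 leukocyte markers, 6 were under the median level on both arrays, among them PTPRC, the pan-leukocyte gene, at log2 values of 2.37 on the IL4 array and 2.50 on the untreated array, and the sums were 192 with IL4 and 186 in untreated cells. The sums of 7 endothelial markers were 207 with IL4 and 187 in untreated cells, with 4 below the median on both arrays. Of 8 fibroblast markers 5 lay below it on both, and their sums were 2682 with IL4 and 2040 in untreated cells, mostly from COL1A1 at log2 values of 11.23 on the IL4 array and 10.82 on the untreated array. The 2 largest log2 differences were 0.39 in NKG7 and 0.32 in LYZ among the leukocyte markers, 0.44 in KDR and 0.29 in VWF among the endothelial ones, and 0.78 in COL3A1 and 0.48 in FAP among the fibroblast ones. Of these 6, COL3A1 alone passed 1.5-fold. It had log2 values of 4.45 on the IL4 array and 3.67 on the untreated array, both under the median level. Over the 5 probe sets of COL3A1 the log2 differences ran from 0 to 0.78, and over the 5 of COL1A1 from 0.055 to 0.90. The part of these differences in the values of the CDK inhibitors and GADD45 genes was not tested.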

How the data were processed

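H2228 cells with IL4 and without treatment were each profiled on 1 Affymetrix U133 Plus 2.0 array. The authors deposited 1 log2 value for each probe set on each array, with medians of 5.04 with IL4 and 5.00 in untreated cells. RMA is listed, with no version, in the submitters' processing notes, and GCOS is given for the raw data in the methods of the study. Scanner files were not used here, so background correction and normalization were not repeated. Of 54675 probe sets, 41097 carried 1 gene symbol, 1801 several, 11721 none, and 62 were controls. For 41043 of the 41097, the symbol was taken by gene number from RefSeq (GRCh38.p14), whether or not it differed from the annotated one. The probe set with the highest mean stood for a gene. Fold sizes are powers of 2 of the log2 difference. The 1.5-fold level is that of the study's results for IL4; its array methods name 2-fold, which was an alternative here. Values below the median of all probe sets, 5.03, were regarded as dim. The number of arrays limits the precision.

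The genes and the 9 related lists were chosen with earlier results of these data known. From each list the text names up to 5 genes past 1.5-fold in each direction whose mean reached the median (the 2 largest differences where none did), and also MDM2, SKP2, FOXO1, FOXO3, CDK2, CDK4, CDK6, CCND1, CCNE1, CCNE2, MAP3K4, MTAP, STAT6 and MYC. PTPRC, COL1A1, CKS1B, RB1, RGCC, CDKN2B-AS1, E2F1 and the recurring differences were chosen after values were seen. Alternatives were quantile normalization, a loess correction (fraction 0.3), median centring, the mean over probe sets, the probe set with the largest difference, leaving out _s_at and _x_at probe sets, 2-fold, and a floor at the median. A gene list and a motif are not reported here. The scripts were tested on simulated data. Python 3.11.15 was used, with numpy 2.4.6 and pandas 2.3.3 for tables, statsmodels 0.14.6 for loess and matplotlib 3.10.9 for figures.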

Additional observations from a re-analysis of the deposited data

How the results depend on the processing

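Quantile normalization and the loess correction kept CDKN1A, GADD45A and GADD45B at least 1.5-fold higher and CDKN1B and CDKN2D at least 1.5-fold lower with IL4. Median centring changed no value, because the median difference was already 0. CDKN1A minus CDKN1B was 2.54 as deposited, 2.55 after quantile normalization and 2.54 after the loess correction. The choice among probe sets could not change it, because each of the 2 genes had only 1. Without probe sets whose suffix is _s_at or _x_at, CDKN1A had no probe set left, and CDKN2D turned to a log2 difference of 0.086. The number of lower genes was 1 in place of 2 without those probe sets, with the mean over probe sets and at 2-fold. At 2-fold, 219 genes in all were higher and 176 lower, and of the 143 measured genes of the 9 lists 8 were higher and 12 lower, against 15 and 38 at 1.5-fold. No paired analysis was possible because each condition had 1 array, and no replicate could be left out for the same reason. Differences of dim probe sets, 5 of the 7 INK4 probe sets among them, are limited by signal.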

Other observations

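MTAP, a gene of methionine salvage next to CDKN2A, had log2 values of 5.10 on the IL4 array and 5.07 on the untreated array on its brightest probe set, a log2 difference of 0.036, and its 6 probe sets ran from -0.19 to 0.44. CDKN2B-AS1, the antisense RNA of the same locus, had 2.43 with IL4 and 2.26 in untreated cells, both far below the median of all probe sets. On its brightest probe set, E2F1 had a log2 value of 7.46 on both arrays, with no difference in any decimal compared. At that level recurring differences were otherwise uncommon (4.91% of probe sets with a mean between 7 and 8). The other probe set of E2F1 had a log2 difference of -0.15.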
